A study of Homo sapiens with 30 samples.

Results

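The transcripts described here are those of the human mitochondrial genome: all genes of GENCODE v29 whose symbol begins with MT-, found by their Ensembl identifiers in the deposited count table. All 37 such genes were in the table, out of 60675 gene entries. On the genome's own transcription map they fall into 28 heavy-strand transcripts (12 mRNAs, 2 rRNAs and 14 tRNAs) and 9 light-strand transcripts (MT-ND6 and 8 tRNAs). Enough reads for a test were found for 15 genes, the 13 mRNAs and the 2 rRNAs, while the 22 tRNAs stayed under the filter on low counts. The RNA came from SW1783, an established human astrocytoma line grown in L-15 medium with serum, sequenced in 30 libraries after 24 h with ethanol extracts of herbal decoctions. Soshiho-tang and Yijin-tang were each given at 20, 100 and 500 µg/mL with 3 libraries per concentration, Okbyeongpung-san at the same concentrations with 2 libraries each, and Soyo-san with 1 library each. The remaining 3 libraries came from cells given DMSO alone as vehicle, whose concentration is 0.1% in the sample labels and 2% in the series description, a difference that could not be settled. All groups are 1 cell line, and no label says whether replicate libraries were grown as separate cultures. The p-values therefore measure the spread among libraries only, and that spread may be technical.

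The mitochondrial genome is a small circle that is transcribed from both strands into long precursors, each carrying many genes. The tRNAs lie between most of the coding sequences, and cutting them out releases the rRNAs and mRNAs. Most of the mRNAs then receive short poly(A) tails. How the libraries selected mRNA is not given, and whether they captured all classes of transcript alike was not tested. The heavy-strand precursor carries both rRNAs and all mRNAs apart from MT-ND6, so the transcripts start from shared precursors and their separate levels also depend on processing and decay. The mRNAs encode core subunits of respiratory complexes I (MT-ND genes), III (MT-CYB) and IV (MT-CO genes) and of ATP synthase (MT-ATP6 and MT-ATP8), and the rRNAs MT-RNR1 and MT-RNR2 build the mitochondrial ribosome that translates them. Their proteins work only together with the many subunits that nuclear genes encode.

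The strands differ in base composition, which is visible in the mRNA of MT-ND6 beside those of its neighbours on either side, MT-ND5 and MT-CYB. The first 90 bases of each are shown because MT-ND6 is the only light-strand mRNA and its level is compared below with that of the heavy-strand mRNAs. Sequences were read from the GENCODE v29 transcripts (GRCh38), 5′ to 3′, and capitals mark G.
MT-ND6 (chrM:14584-14673, minus strand): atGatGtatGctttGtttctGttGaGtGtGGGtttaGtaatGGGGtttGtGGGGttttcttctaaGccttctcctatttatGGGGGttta
MT-ND5 (chrM:12337-12426, plus strand): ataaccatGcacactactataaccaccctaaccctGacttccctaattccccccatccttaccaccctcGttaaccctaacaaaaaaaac
MT-CYB (chrM:14747-14836, plus strand): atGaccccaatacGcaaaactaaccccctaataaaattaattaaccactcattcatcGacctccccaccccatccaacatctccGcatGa
In these stretches MT-ND6 has 27 G and 9 C, MT-ND5 has 3 G and 37 C, and MT-CYB has 5 G and 35 C.

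Some heavy-strand genes share bases with a neighbour on the same mRNA. The junctions of MT-ATP8 with MT-ATP6 and of MT-ND4L with MT-ND4 are shown because reads from the shared bases cannot be given to one gene with certainty. Capitals mark the bases that belong to both genes.
MT-ATP8/MT-ATP6 (chrM:8507-8592, plus strand): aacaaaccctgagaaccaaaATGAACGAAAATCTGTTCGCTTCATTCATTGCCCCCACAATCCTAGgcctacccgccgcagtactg
MT-ND4L/MT-ND4 (chrM:10740-10786, plus strand): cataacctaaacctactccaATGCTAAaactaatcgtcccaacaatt
The overlap is 46 bases in the ATP synthase pair and 7 bases in the complex I pair. Whether the counting used strand is not given in the sources used here. Reads of MT-ND6 and of heavy-strand precursor lying antisense to it therefore cannot be told apart either.

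Library totals lay between 23.9 and 33.1 M estimated counts. The titles give batch letter E to the vehicle, Soshiho-tang and Yijin-tang libraries and to replicate 2 of Okbyeongpung-san, and letter D to replicate 3 of Okbyeongpung-san and to Soyo-san. The 3 vehicle libraries carry a run of library names of their own. Among the non-zero deposited values, 23.6 to 24.9% were not whole numbers in the 27 extract libraries, against 26.9 to 27.4% in vehicle. The nuclear RNAs MALAT1 and NEAT1 together took 0.166 to 0.309% of counts in the extract libraries and 0.106 to 0.13% in vehicle, again without overlap. Extract treatment and this difference between library sets cannot be told apart in any comparison with vehicle, and all such comparisons share the same 3 vehicle libraries. Comparisons of 500 with 20 µg/mL within an extract take no level from vehicle, but the vehicle libraries are in the same edgeR fits and so enter their filter and their estimate of the spread. In bulk RNA, fewer cells of a kind, fewer mitochondria per cell and less RNA per mitochondrion cannot be told apart. Of the astroglial markers, GFAP, the astrocyte filament protein, reached at most 0.212 CPM (counts per 1000000 counts of the library) and S100B at most 0.241, AQP4 and ALDH1L1 were at or near 0, and the filament VIM stood between 3833 and 5459 CPM. The glutamate transporter SLC1A3 stood at 18.9 to 35.1 CPM in the extract libraries and 30.2 to 32 CPM in vehicle. The transcription factor SOX9 stood at 54.4 to 77.7 CPM in the extract libraries and 80.8 to 88.9 CPM in vehicle, lower without overlap. The summed share of the heavy-strand mRNAs and that of MT-ND6 were also lower without overlap, though not each single mRNA was. The part of SOX9 in the results below was not tested. The 9 markers of myeloid, endothelial, neuronal and epithelial cells summed to 253 to 378 CPM in extract libraries and 329 to 354 CPM in vehicle, most of it from CD68 and KRT18.

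Mitochondrial transcripts took a smaller share of all counts in the extract libraries than in the vehicle libraries. The 37 genes held 10.5, 10.7 and 10.6% of counts in vehicle. With Soshiho-tang they held 6.8, 6.37 and 9.03% at 20 µg/mL, 9.01, 7.67 and 8.05% at 100 µg/mL and 7.79, 7.34 and 6.93% at 500 µg/mL. In none of these 9 libraries did the share reach the lowest vehicle value. Yijin-tang gave 9.05, 9.59 and 7.15% at 20 µg/mL, 8.27, 7.79 and 8.87% at 100 µg/mL and 6.7, 7.35 and 10.6% at 500 µg/mL. Replicate 3 at 500 µg/mL was the only extract library of the 27 that lay within the vehicle range. Okbyeongpung-san gave 8.11 and 8.36% at 20 µg/mL, 8.45 and 8.04% at 100 µg/mL and 5.68 and 6.8% at 500 µg/mL, where the first value of each pair is the batch E library. The Soyo-san libraries held 6.68% at 20 µg/mL, 7.01% at 100 µg/mL and 7.18% at 500 µg/mL.

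**Figure D1:**
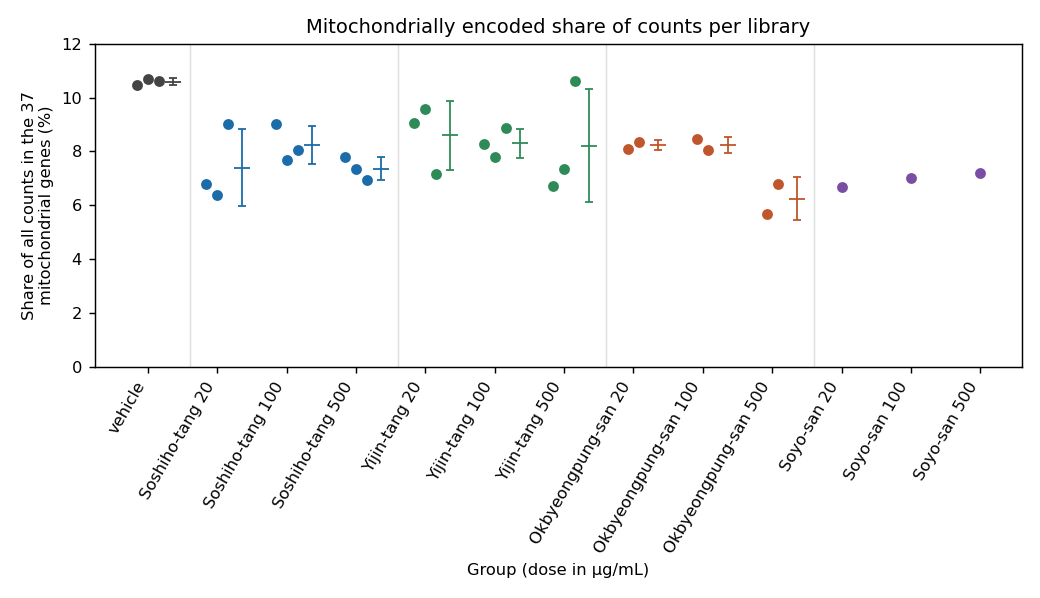
Share of all counts in the 37 mitochondrial genes (vertical axis, percent) for each of the 30 libraries by group and dose in µg/mL. Points are libraries, and the bar beside them is mean ± SD where a group has more than 1 library. The vehicle libraries sit between 10.5 and 10.7%, and 26 of the 27 extract libraries lie below them.

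Group means lay between 6.24 ± 0.798% (SD, n = 2; Okbyeongpung-san at 500 µg/mL) and 8.6 ± 1.28% (SD, n = 3; Yijin-tang at 20 µg/mL), against 10.6 ± 0.118% in vehicle (SD, n = 3). For 8 of the 9 groups tested, two-sided exact permutation tests against vehicle gave p = 0.1, the smallest value these group sizes allow (0.15 after Benjamini-Hochberg adjustment over 12 comparisons). For Yijin-tang at 500 µg/mL the exact p was 0.2, and without its replicate 3 the difference from vehicle moved to -3.58 percentage points, compared with -2.38 with it. All 27 extract libraries together averaged 7.8 ± 1.1%, 73.6% of the vehicle mean (exact permutation p = 4.93e-04 over 4060 arrangements). The pooled tests here and for the ratios below treat libraries of all decoctions and doses as replicates of a single condition. Their small p-values rest on that pooling and on the same 3 vehicle libraries, so they are no test of any extract or dose.

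Between 500 and 20 µg/mL the share gave no difference larger than the spread for Soshiho-tang (7.36 ± 0.428% against 7.4 ± 1.43%, exact permutation p = 1) or Yijin-tang (8.22 ± 2.1% against 8.6 ± 1.28%, exact permutation p = 0.9). Okbyeongpung-san was lower at 500 than at 20 µg/mL in both batches, with 5.68% against 8.11% in batch E and 6.8% against 8.36% in batch D. With 2 libraries against 2 the exact permutation p cannot go below 0.333, which is the value found.

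The share was smaller for the mRNAs of both strands, while that of the rRNAs overlapped with vehicle. The 12 heavy-strand mRNAs took 4.52 to 8.88% of counts in the extract libraries (median 6.35%), against 8.98 to 9.14% in vehicle, with no overlap. MT-ND6, the complex I subunit coded on the other strand, took 0.0358 to 0.0789% (median 0.0495%), against 0.106 to 0.117% in vehicle, also with no overlap. The 2 rRNAs took 1.1 to 1.71% (median 1.48%), against 1.37 to 1.45% in vehicle. For the rRNAs 16 extract libraries lay above every vehicle library and 6 below, so the groups overlapped.

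Levels are given from here on as CPM scaled by the trimmed mean of M values (TMM), over all 30 libraries. MT-ND6 (ENSG00000198695, chrM:14149-14673) stood at 413, 463 and 448 CPM with Soshiho-tang at 500 µg/mL, 409.6, 454 and 810.0 CPM under Yijin-tang and 572 and 359 CPM with Okbyeongpung-san, against 1220.1, 1139 and 1107 CPM in vehicle. At 20 µg/mL it stood at 444, 406 and 547 CPM with Soshiho-tang, 632, 711 and 460.3 CPM under Yijin-tang and 524 and 543 CPM with Okbyeongpung-san. All 27 extract libraries lay below all vehicle libraries, and the values at 500 and 20 µg/mL overlapped in all 3 extracts. By the edgeR quasi-likelihood test, adjusted over all genes after Benjamini and Hochberg, MT-ND6 fell against vehicle with Soshiho-tang (log2 fold change -1.39 ± 0.19 SE, adjusted p = 4.16e-06), Yijin-tang (-1.05 ± 0.19, adjusted p = 2.42e-04) and Okbyeongpung-san (-1.30 ± 0.17, adjusted p = 5.47e-04) at 500 µg/mL. It also fell in the 6 comparisons at the lower doses, by 0.94 to 1.31 on the log2 scale.

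MT-ATP8 (ENSG00000228253, chrM:8366-8572), a small subunit of the ATP synthase membrane part, had the lowest extract level relative to vehicle. It stood at 435, 449 and 446 CPM with Soshiho-tang at 500 µg/mL, 400.4, 439.5 and 836 CPM under Yijin-tang and 436 and 278 CPM with Okbyeongpung-san, against 1112, 1369 and 1145 CPM in vehicle. At 20 µg/mL the values were 464, 333 and 630.0 CPM with Soshiho-tang, 662, 572 and 469.9 CPM under Yijin-tang and 503 and 451 CPM with Okbyeongpung-san. No extract library at any dose reached the lowest vehicle value. The edgeR log2 fold change at 500 µg/mL against vehicle was -1.45 ± 0.22 with Soshiho-tang (adjusted p = 1.44e-05), -1.11 ± 0.22 with Yijin-tang (adjusted p = 5.16e-04) and -1.75 ± 0.18 with Okbyeongpung-san (adjusted p = 1.90e-04).

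MT-ND4L (ENSG00000212907, chrM:10470-10766) and MT-ND4 (ENSG00000198886, chrM:10760-12137), complex I subunits on a shared mRNA, followed. MT-ND4L stood at 740.3, 686 and 792 CPM with Soshiho-tang at 500 µg/mL, 747, 655 and 864 CPM under Yijin-tang and 463 and 679 CPM with Okbyeongpung-san, against 1286, 1360.4 and 1298 CPM in vehicle. MT-ND4 stood at 8518, 7396 and 6594 CPM, 6590.0, 7983 and 12630.2 CPM and 6548 and 7169 CPM in the same order of extracts, against 14739, 15363 and 15372 CPM in vehicle. Both genes were below all vehicle libraries in all 27 extract libraries. Their log2 fold changes across the 9 comparisons with vehicle ran from -1.19 to -0.75 for MT-ND4L and from -1.13 to -0.64 for MT-ND4, and each had an edgeR adjusted p under 0.05 in all 9.

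**Figure D2:**
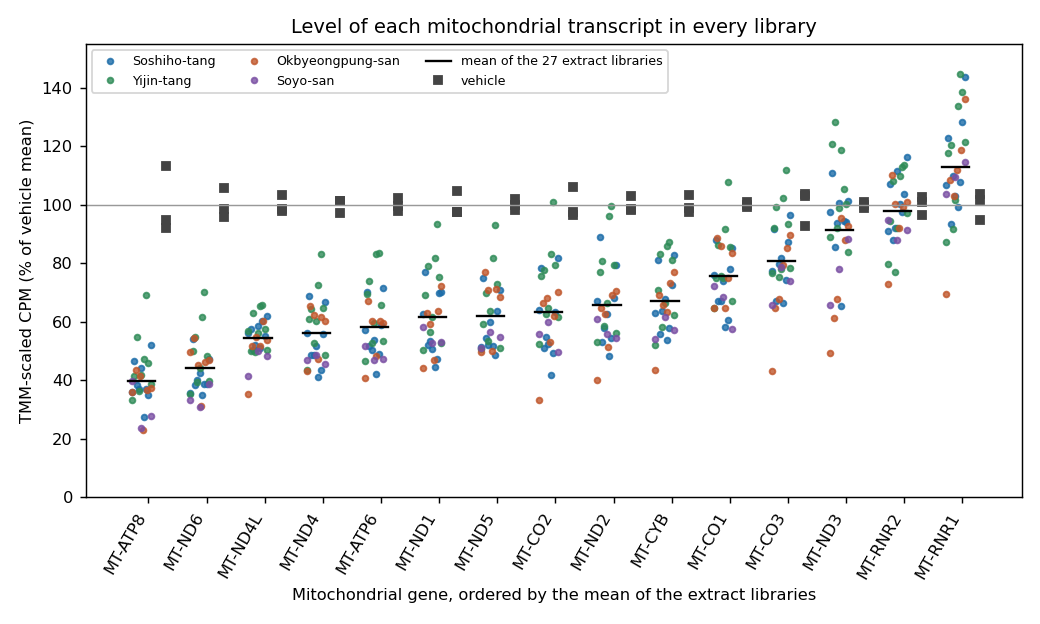
TMM-scaled CPM of the 15 tested mitochondrial genes as a percentage of the vehicle mean (vertical axis). Circles are the 27 extract libraries coloured by decoction, black lines their mean, and squares the 3 vehicle libraries. The extract mean runs from 39.7% of vehicle for MT-ATP8 to 113% for MT-RNR1.

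Taking all 27 extract libraries, the mean level was 39.7% of the vehicle mean for MT-ATP8, 44.1% for MT-ND6, 54.3% for MT-ND4L and 56.1% for MT-ND4. Of the remaining complex I genes MT-ND3 stood at 91.4%, and MT-ND1, MT-ND5 and MT-ND2 stood at 61.5%, 62% and 65.8%, MT-ATP6 at 58.4% and the complex III subunit MT-CYB at 67.1%. Among the complex IV genes MT-CO2 stood at 63.5%, MT-CO1 at 75.7% and MT-CO3 at 80.7%. MT-ND1, MT-ATP8, MT-ATP6, MT-ND4L, MT-ND4, MT-ND5, MT-ND6 and MT-CYB lay below every vehicle library in all 27 extract libraries, and MT-ND2, MT-CO1 and MT-CO2 in 26. The exception for each of these 3 genes was replicate 3 of Yijin-tang at 500 µg/mL, which read 23380.4 CPM of MT-CO1, against 21714, 21899.9 and 21539 CPM in vehicle. How many of all genes separated from vehicle in this way was not counted, so this separation cannot be set beside a share of all genes.

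MT-ND3 and the rRNAs did not pass the test in any comparison with vehicle. MT-ND3 (ENSG00000198840, chrM:10059-10404), a small complex I subunit, stood at 1250.2, 1200.2 and 1209 CPM with Soshiho-tang at 500 µg/mL, 1138, 1180.5 and 1348 CPM under Yijin-tang and 632 and 1221 CPM with Okbyeongpung-san, against 1281, 1268 and 1291 CPM in vehicle. Its extract libraries lay on both sides, 19 below and 6 above all vehicle libraries. Its log2 fold changes against vehicle ran from -0.45 to 0.14 and none of the 9 passed the edgeR test (lowest adjusted p = 0.19). MT-CO3 passed it in 2 of 9, with Soshiho-tang (-0.37 ± 0.14, adjusted p = 0.0335) and Okbyeongpung-san (-0.69 ± 0.23, adjusted p = 0.0493) at 500 µg/mL, and both calls were lost when libraries were scaled by their totals alone.

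The small-subunit rRNA MT-RNR1 (ENSG00000211459, chrM:648-1601) stood at 847, 872 and 857 CPM with Soshiho-tang at 500 µg/mL, 693, 729 and 1149 CPM under Yijin-tang and 553 and 889 CPM with Okbyeongpung-san, against 808, 822 and 752 CPM in vehicle. Of the 27 extract libraries 19 lay above all vehicle libraries and 4 below. The large-subunit rRNA MT-RNR2 (ENSG00000210082, chrM:1671-3229) stood at 12769.9, 12917 and 13659 CPM, 11184, 10781 and 15824 CPM and 10220.4 and 12897 CPM in the same order, against 13511, 14371 and 14154 CPM in vehicle, with 9 extract libraries above and 12 below. Neither rRNA passed the edgeR test in any of the 9 comparisons with vehicle, where log2 fold changes ran from -0.13 to 0.33 for MT-RNR1 and from -0.26 to 0.10 for MT-RNR2. The lowest adjusted p was 0.159 for MT-RNR1, with Yijin-tang at 20 µg/mL, and 0.0689 for MT-RNR2, with Okbyeongpung-san at 500 µg/mL. When genes were tested without the filter on low counts MT-RNR1 passed as higher in 5 of the 9 comparisons, and when only the groups compared were fitted in 2.

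Per kilobase of annotated gene, the order of levels differed between extract and vehicle libraries. In the extract libraries MT-CO2 (11225 CPM per kb) and MT-CO1 (10664) led, followed by MT-RNR2 (8798), MT-CO3 (8155), MT-ATP6 (6367) and MT-ND4 (6166). In vehicle MT-CO2 (17677 CPM per kb) and MT-CO1 (14084) led too, followed by MT-ND4 (11000.1), MT-ATP6 (10901), MT-CO3 (10109) and then MT-RNR2 (8988). MT-RNR1, the lowest of the 15 in vehicle at 832 CPM per kb, stood at 939.7 in the extract libraries beside MT-ND6 at 971, whose vehicle level was 2201. Levels per length of the shortest genes (MT-ATP8, MT-ND4L and MT-ND3) are less certain, since a paired fragment can be longer than the gene.

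Ratios between counts of the same library are free of library scaling and show the same unequal change. The rRNA counts per heavy-strand mRNA count were 0.22, 0.246 and 0.282 with Soshiho-tang at 500 µg/mL, 0.226, 0.194 and 0.186 with Yijin-tang and 0.243 and 0.256 with Okbyeongpung-san, against 0.153, 0.158 and 0.158 in vehicle. All 27 extract libraries, at 0.186 to 0.314, lay above all vehicle libraries. The mean log2 difference was 0.66, 0.37 and 0.67 in the 3 extracts at 500 µg/mL, with an exact permutation p of 0.1 each (adjusted 0.133), the smallest possible. Pooled over all 27 libraries, taken as a single group, it was 0.59 (exact permutation p = 2.46e-04, the smallest possible over 4060 arrangements). Between 500 and 20 µg/mL the log2 difference was -0.08 in Soshiho-tang (exact permutation p = 0.7), -0.15 in Yijin-tang (0.4) and 0.16 in Okbyeongpung-san (0.333, the smallest possible).

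**Figure D3:**
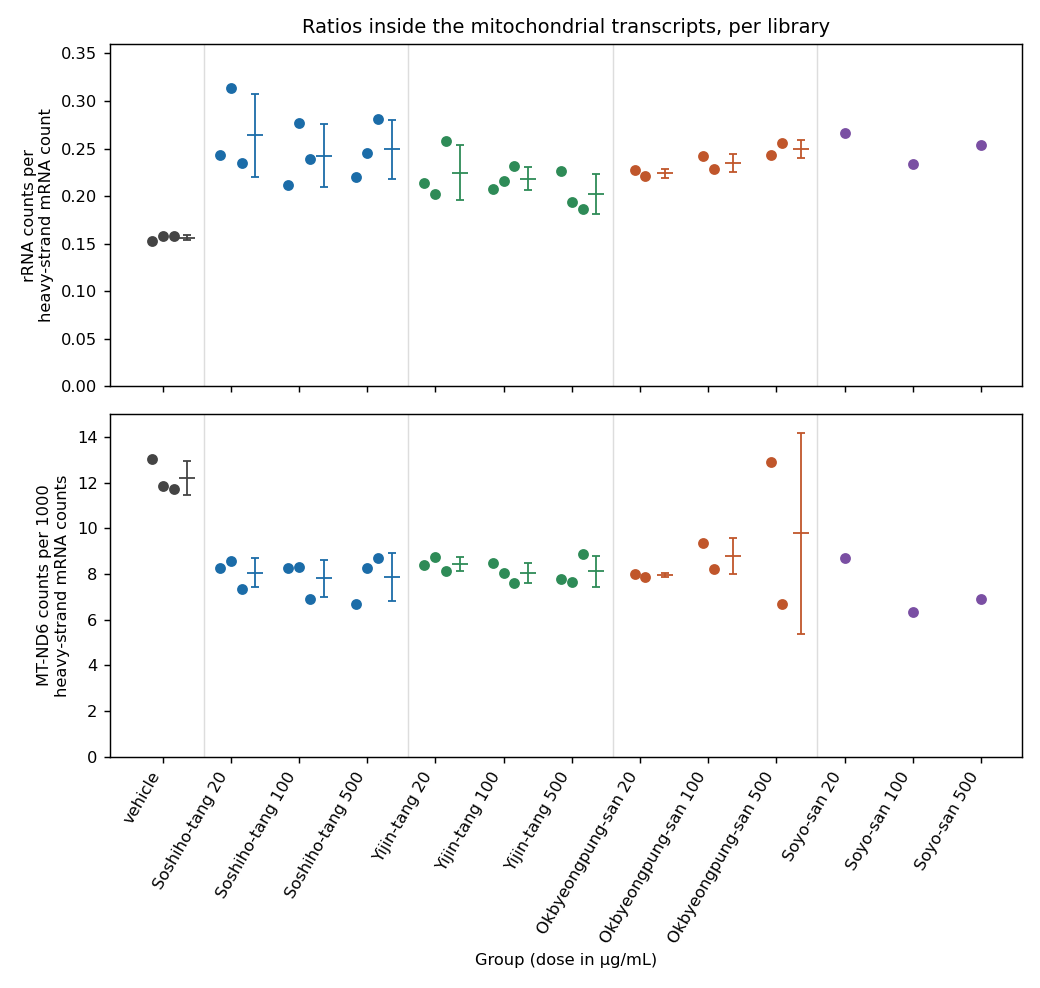
Upper panel: counts of MT-RNR1 plus MT-RNR2 per count of the 12 heavy-strand mRNAs; lower panel: MT-ND6 counts per 1000 counts of those mRNAs, for each of the 30 libraries by group and dose in µg/mL, with mean ± SD. All 27 extract libraries lie above vehicle in the upper panel and 26 lie below it in the lower panel, where 1 library of Okbyeongpung-san at 500 µg/mL stands at 12.9.

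MT-ND6 was lower relative to the heavy-strand mRNAs as well. Per 1000 heavy-strand mRNA counts it had 6.67, 8.24 and 8.7 counts with Soshiho-tang at 500 µg/mL, 7.79, 7.66 and 8.89 with Yijin-tang and 12.9 and 6.67 with Okbyeongpung-san, against 13, 11.9 and 11.7 in vehicle. The exception of 12.9 is replicate 2 of Okbyeongpung-san (batch E), which had the lowest mitochondrial share of all libraries and the highest share of MALAT1 plus NEAT1, 0.309%. The other 26 extract libraries lay below vehicle, and the log2 difference over all 27, pooled as a single group, was -0.60 (exact permutation p = 7.39e-04). For Okbyeongpung-san at 500 µg/mL alone it was -0.39 (exact permutation p = 0.4), and it was -0.87 without replicate 2 and 0.08 without replicate 3. Soshiho-tang and Yijin-tang gave -0.64 and -0.59 (exact permutation p = 0.1 each). At 500 against 20 µg/mL the log2 difference was -0.04 in Soshiho-tang, -0.06 in Yijin-tang and 0.22 in Okbyeongpung-san, all within the spread (exact permutation p of 0.8, 0.5 and 1).

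The overlapping neighbours on one mRNA differed in how far they moved together. MT-ATP8 had 7.73 to 14.3% of the MT-ATP6 count in the extract libraries, against 15.3 to 18% in vehicle, with no overlap. MT-ND4L had 6.84 to 12% of the MT-ND4 count in the extract libraries, against 8.44 to 8.86% in vehicle, with extract libraries on both sides. The junction bases printed above are shared in each pair, and how the counting divided their reads was not tested. MT-RNR2 counts were 13.1 to 19.1 times MT-RNR1 counts in the extract libraries (mean 15.5) and 16.7 to 18.8 times in vehicle (mean 17.7). The ranges overlap, with 22 of the 27 extract libraries below every vehicle library and 1 above.

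Over all genes tested, Soshiho-tang at 500 µg/mL lowered 21.1% against vehicle at an edgeR adjusted p under 0.05, and 12 of the 15 tested mitochondrial genes were among them with 0 higher. The median log2 fold change was -0.83 over the 15 genes and 0.01 over all genes. At 20 µg/mL 11 were lower and at 100 µg/mL 8, where the share of all genes called lower was 10.5% and 10.2%. The share of all genes called in either direction was 21.8%, 21% and 43.9% at 20, 100 and 500 µg/mL. The median over the 15 genes was -0.76 at 20 µg/mL (0.00 over all genes) and -0.60 at 100 µg/mL (0.00 over all genes). Leaving out replicate 2 of the 100 µg/mL group gave 4 calls, and leaving out its replicate 3 or vehicle replicate 3 gave 5.

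Yijin-tang lowered 5 of the 15 genes at 20 µg/mL, 7 at 100 µg/mL and 8 at 500 µg/mL, and raised 0. Of all genes 9.2%, 12.5% and 15.2% were called lower and 19.8%, 25.6% and 31.3% in either direction. Median log2 fold changes at 20, 100 and 500 µg/mL were -0.43, -0.46 and -0.58 over the 15 genes and 0.00, 0.00 and 0.01 over all genes. Without replicate 3 at 500 µg/mL, the library whose share lay within the vehicle range, 13 genes were called at that dose. Without replicate 3 at 20 µg/mL the count at that dose was 3.

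Okbyeongpung-san lowered 8 of the 15 genes at each of 20 and 100 µg/mL and 12 at 500 µg/mL, and raised 0. The shares of all genes called lower were 1.06%, 1.62% and 11.4%. Those called higher were 1.18%, 2.04% and 13.3%, and those called in either direction 2.24%, 3.66% and 24.7%. The median log2 fold changes were -0.52, -0.57 and -1.11 over the 15 genes and 0.01, 0.01 and 0.01 over all genes. At 20 and 100 µg/mL the counts rest on each library: without any one extract library of the dose or any one vehicle library, 1 to 4 genes were called at 20 µg/mL and 1 to 3 at 100 µg/mL. With the batch letter as a block the count at 100 µg/mL was 13, while calls over all 16643 genes rose from 609 to 3666. The replicate number marks the batch letter within Okbyeongpung-san, while all vehicle libraries have letter E.

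**Figure D4:**
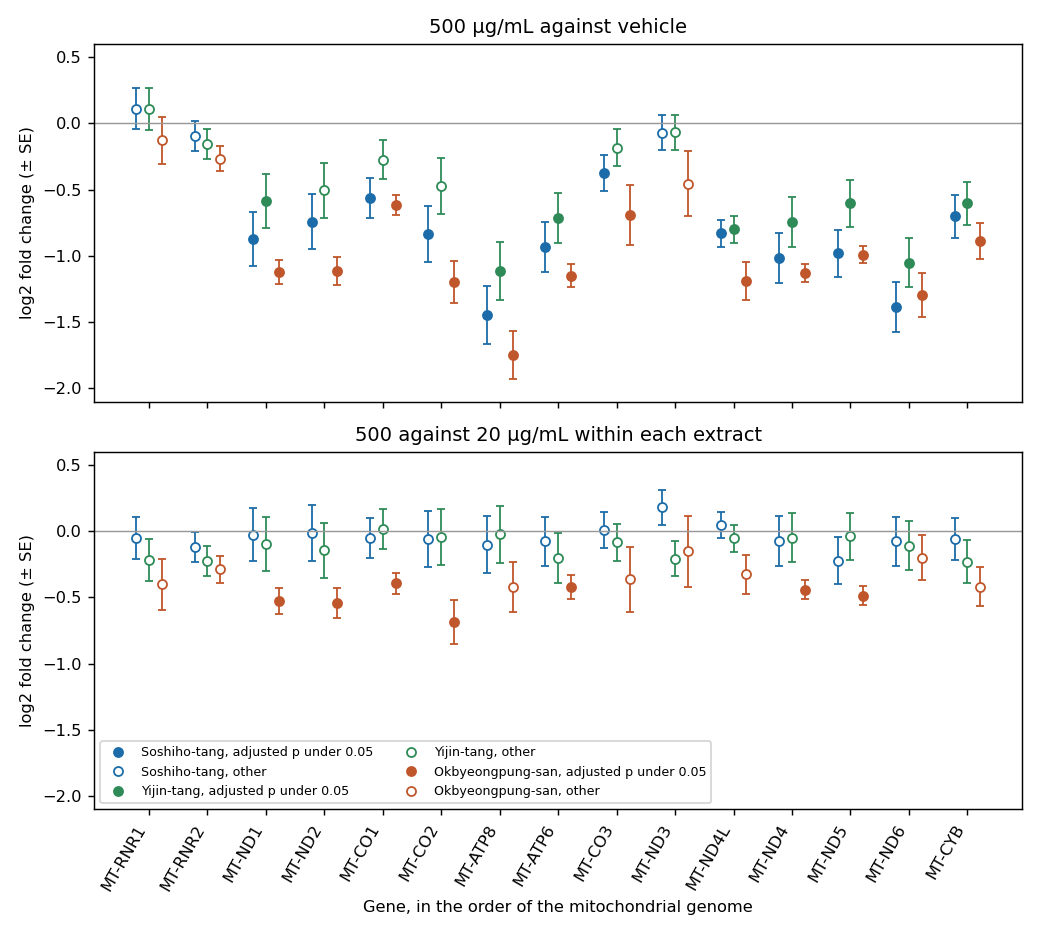
edgeR log2 fold changes (± SE) of the 15 tested mitochondrial genes in genome order, at 500 µg/mL against vehicle (upper panel) and at 500 against 20 µg/mL within each extract (lower panel), for the 3 extracts with replicates. Filled points have an adjusted p under 0.05. In the upper panel MT-RNR1, MT-RNR2 and MT-ND3 lie nearest to 0, and in the lower panel 7 genes are filled, all of Okbyeongpung-san.

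Counting over the 9 comparisons of Soshiho-tang, Yijin-tang and Okbyeongpung-san with vehicle, MT-ATP8, MT-ND4, MT-ND4L, MT-ND5 and MT-ND6 fell in all 9. MT-ATP6 fell in 8, MT-ND1 in 7, MT-ND2 and MT-CYB in 5, MT-CO2 in 4, MT-CO1 in 3 and MT-CO3 in 2. MT-ND3, MT-RNR1 and MT-RNR2 fell in 0. The vehicle libraries are the same in each, so the 9 comparisons are not independent. How many of all genes fell in as many of them was not counted.

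For Soshiho-tang at 500 against 20 µg/mL, tested in the fit that also holds the vehicle libraries, 0 of the 15 mitochondrial genes were called. Of all genes 28.9% were called. None had an unadjusted p under 0.05, and DESeq2 also called 0, while without the filter on low counts 2 were called, MT-ND5 as lower and MT-ND3 as higher. Log2 fold changes ran from -0.22 to 0.18, with a median of -0.06 (0.01 over all genes). For Yijin-tang 0 of 15 were called beside 5.64% of all genes (2.7% higher and 2.94% lower). That share is too small for 0 of 15 to set these genes apart from all genes. Again 0 had an unadjusted p under 0.05 and DESeq2 called 0. Log2 fold changes ran from -0.23 to 0.02 (median -0.09, and 0.00 over all genes), and 14 of the 15 were negative. Without the filter on low counts 5 were called for Yijin-tang, all lower (MT-CYB, MT-ND3, MT-ATP6, MT-RNR2 and MT-RNR1), and leaving out its replicate 3 at 500 µg/mL gave 2 calls. The difference between the dose steps of Soshiho-tang and Yijin-tang, tested as an interaction, called 0 of 15 genes beside 13.6% of all genes (6.63% higher and 6.99% lower), with 0 at an unadjusted p under 0.05 and 0 by DESeq2. It called 1, MT-ND3 as higher, without the filter and also without replicate 3 of Yijin-tang at 20 µg/mL. Of all 34287 genes tested without the filter, 4660, 1052 and 2270 were called for Soshiho-tang, Yijin-tang and the interaction.

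Okbyeongpung-san at 500 against 20 µg/mL lowered 7 of the 15 genes, MT-ATP6, MT-CO1, MT-CO2, MT-ND1, MT-ND2, MT-ND4 and MT-ND5, beside 5.1% of all genes called lower, 5.21% higher and 10.3% in either direction. MT-ND4 stood at 6548 and 7169 CPM at 500 µg/mL, against 9439 and 9159 CPM at 20 µg/mL, without overlap (log2 fold change -0.44 ± 0.07, edgeR adjusted p = 0.00465). MT-CO2, which carries the copper centre that takes electrons from cytochrome c, stood at 4025 and 6407 CPM, against 8226 and 8497 CPM (-0.68 ± 0.17, adjusted p = 0.029). MT-ND5 stood at 2782 and 2796 CPM, against 3967 and 3828 CPM (-0.49 ± 0.07, adjusted p = 0.00228). All 15 log2 fold changes were negative, from -0.68 to -0.15 (median -0.42, and 0.00 over all genes), with the rRNAs at -0.40 and -0.29 (adjusted p = 0.221 and 0.114) and MT-ND6 at -0.20 (adjusted p = 0.515). With the batch as a block 13 genes were called, without replicate 3 at 500 µg/mL 12 and without replicate 2 at 20 µg/mL 4. Over all 16643 genes the block gave 3251 calls, against 1716 without it. Fitting only the 4 libraries compared called 0 of the mitochondrial genes, beside 523 of 16107 genes. All 27 replicated libraries in one fit also called 0, beside 3082 of 17396 genes.

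Soyo-san had 1 library per dose, and it was described without a test of its own. Its libraries are part of the pooled comparisons and relations over the 27 extract libraries. On the log2(CPM + 1) scale 11 of the 15 genes were more than 1.5-fold lower than the vehicle mean at 20 µg/mL, 10 at 100 µg/mL and 12 at 500 µg/mL, and 0 were more than 1.5-fold higher. The shares of all genes more than 1.5-fold lower were 1.12%, 1.12% and 1.79%, and past 1.5-fold in either direction 1.68%, 1.67% and 2.86%. MT-ATP8 stood at 1112, 1369 and 1145 CPM in vehicle and at 335, 287 and 481 CPM at 20, 100 and 500 µg/mL. MT-ND6 stood at 1220.1, 1139 and 1107 CPM in vehicle and at 447, 356 and 383 CPM, the value at 100 µg/mL being the lowest of all 30 libraries. MT-RNR1, at 911, 869 and 825 CPM, was the only one of the 15 at or above the vehicle mean in all 3 libraries.

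The tRNAs were close to unmeasured. Of the 14 heavy-strand tRNAs 12 had no count in any library, and the other 2, MT-TF and MT-TV, had 1 count each, both in vehicle. The 8 light-strand tRNAs summed to 52 counts over the 27 extract libraries, 0 to 4 in each, and to 62 counts over the 3 vehicle libraries, namely 19, 30 and 13. They were mainly MT-TQ, the glutamine tRNA, with 26 counts over the extract libraries and 22 over vehicle, and MT-TA, the alanine tRNA, with 15 and 25. MT-TE had 4 and 7, MT-TS1 0 and 4, and MT-TP none in any library. This contrast was noticed after the values were seen and was not tested. A count of 0 allows up to 3 counts, or 0.0908 to 0.126 CPM in the extract libraries and 0.117 to 0.125 CPM in vehicle, for counting error only.

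Nuclear copies of mitochondrial genes can take reads from the genes they resemble, since the counting divides reads that match several genes. The 401 listed copies held 0.0648 to 0.159% of counts in the extract libraries and 0.128 to 0.153% in vehicle. By library, 26 of the 27 extract libraries lay below every vehicle library and 1 above, and their mean was 69.1% of the vehicle mean. The copies with the most counts were MTATP6P1 (20569 counts on average in the extract libraries and 27236 in vehicle), MTND2P28 (3907 and 4960.0) and MTCO1P12 (1694 and 1505). MTND1P23 and MTCO1P28 came next, with averages of 18 and 13.8 counts over all libraries. Values of MT-ATP6, MT-ND2 and MT-CO1 are uncertain to the extent of such sharing, and adding all copies to the mitochondrial share left each of its comparisons in the same direction.

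Lists of nuclear genes for mitochondrial gene expression were set beside the share of all genes called in each direction. With Soshiho-tang at 500 µg/mL 11 of 18 genes of mitochondrial DNA transcription and replication rose and 1 fell, against vehicle, beside 22.8% and 21.1% of all genes called higher and lower. PRIMPOL (0.43 ± 0.08), the replicative helicase TWNK (0.41 ± 0.06), the topoisomerase TOP1MT (0.40 ± 0.08) and the polymerase subunit POLG2 (0.35 ± 0.10) had the largest log2 fold changes. TFAM, which packages the genome and starts its transcription, rose by 0.26 ± 0.07 (edgeR adjusted p = 0.00457), and the mitochondrial RNA polymerase POLRMT had 0.18 ± 0.08 (adjusted p = 0.0635). With Yijin-tang 4 rose and 1 fell. Among them MTERF2 (0.41 ± 0.09), PRIMPOL (0.34 ± 0.09) and DNA2 (0.21 ± 0.07) were higher and RNASEH1 (-0.33 ± 0.07) lower, beside 16% of all genes called higher and 15.2% lower. With Okbyeongpung-san 2 rose and 0 fell, the transcription factor TFB2M (0.47 ± 0.10) and TWNK (0.29 ± 0.08), beside 13.3% of all genes called higher and 11.4% lower, so that the share of the list that rose was no higher than that of all genes. POLRMT and TFAM had adjusted p-values of 0.751 and 0.348 with Yijin-tang and 0.0717 and 0.0699 with Okbyeongpung-san. The list's median log2 fold change was 0.26 with Soshiho-tang, 0.14 with Yijin-tang and 0.19 with Okbyeongpung-san, against 0.01, 0.01 and 0.01 over all genes.

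Of 29 genes that process, stabilise or degrade mitochondrial RNA, 14 rose and 2 fell with Soshiho-tang at 500 µg/mL, 11 rose and 0 fell with Yijin-tang, and 8 rose and 0 fell with Okbyeongpung-san. The background was 22.8% of all genes called higher and 21.1% lower with Soshiho-tang, 16% higher and 15.2% lower with Yijin-tang and 13.3% higher and 11.4% lower with Okbyeongpung-san. SLIRP, which binds LRPPRC and protects mitochondrial mRNAs, rose in each, by 0.67 ± 0.09, 0.60 ± 0.09 and 0.69 ± 0.17 on the log2 scale. It stood at 71.1, 60.6 and 67.8 CPM with Soshiho-tang, 60.5, 61.8 and 67.9 CPM under Yijin-tang and 64.5 and 69.1 CPM with Okbyeongpung-san, against 43.5, 45 and 36.9 CPM in vehicle, so the groups did not overlap. LRPPRC itself had 0.22 ± 0.05 (edgeR adjusted p = 0.00172), 0.02 ± 0.05 (0.843) and 0.30 ± 0.10 (0.0489). FASTKD2, an RNA-binding protein needed to assemble the mitochondrial ribosome, rose by 0.63 ± 0.06 with Soshiho-tang, 0.21 ± 0.06 with Yijin-tang and 0.66 ± 0.08 with Okbyeongpung-san. The nuclease subunit of mitochondrial RNase P, listed as KIAA0391, rose by 0.63 ± 0.05 with Soshiho-tang and 0.39 ± 0.05 with Yijin-tang. The degradosome helicase SUPV3L1 rose by 0.61 ± 0.05 with Soshiho-tang, and its partner nuclease PNPT1 by 0.33 ± 0.04 with Yijin-tang, where FASTKD3 rose by 0.44 ± 0.06. With Okbyeongpung-san the oligoribonuclease REXO2 rose by 0.41 ± 0.09 and the tRNA-modifying TRIT1 by 0.43 ± 0.10. The list's median log2 fold change was 0.16 with Soshiho-tang, 0.06 with Yijin-tang and 0.10 with Okbyeongpung-san, against 0.01, 0.01 and 0.01 over all genes.

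Mitochondrial translation factors rose in 7 of 11 and fell in 1 with Soshiho-tang at 500 µg/mL, against vehicle, 4 and 0 with Yijin-tang and 6 and 1 with Okbyeongpung-san. Beside them stood 22.8%, 16% and 13.3% of all genes called higher and 21.1%, 15.2% and 11.4% lower in the same order. The initiation factor MTIF3 rose by 0.55 ± 0.13, 0.59 ± 0.12 and 0.48 ± 0.07 and MTIF2 by 0.48 ± 0.05, 0.33 ± 0.05 and 0.38 ± 0.08. The release factor MTRF1 rose by 0.40 ± 0.11 with Soshiho-tang, the elongation factors TUFM by 0.29 ± 0.05 with Yijin-tang and GFM1 by 0.39 ± 0.08 with Okbyeongpung-san, and the ribosome recycling factor GFM2 by 0.16 ± 0.04 with Yijin-tang. C12orf65, which rescues stalled mitochondrial ribosomes, was the member that fell, by 0.25 ± 0.07 with Soshiho-tang and 0.49 ± 0.12 with Okbyeongpung-san. Over the list the medians were 0.22, 0.12 and 0.27 in the 3 extracts, and over all genes 0.01, 0.01 and 0.01.

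Among 11 mitochondrial chaperones and proteases 7 rose with Soshiho-tang at 500 µg/mL, 3 with Yijin-tang and 5 with Okbyeongpung-san, and 0 fell, where the 3 extracts had 22.8%, 16% and 13.3% of all genes called higher and 21.1%, 15.2% and 11.4% lower. The matrix chaperone HSPA9 had log2 fold changes of 0.70 ± 0.05 and 0.56 ± 0.06 and the matrix protease LONP1 0.67 ± 0.06 and 0.54 ± 0.08 with Soshiho-tang and Okbyeongpung-san. The co-chaperonin HSPE1 had 0.49 ± 0.08 with Soshiho-tang and 0.46 ± 0.08 with Yijin-tang, the unfoldase CLPX 0.26 ± 0.05, 0.29 ± 0.05 and 0.25 ± 0.07 in the 3 extracts, TRAP1 0.26 ± 0.05 with Yijin-tang and HSPD1 0.23 ± 0.07 with Okbyeongpung-san. Of 10 regulators of mitochondrial biogenesis 9 were tested, and 2 rose and 0 fell with Soshiho-tang, 2 and 2 with Yijin-tang and 1 and 1 with Okbyeongpung-san, and the share that rose with Soshiho-tang was close to that of all genes. PPARGC1A, the coactivator known for driving biogenesis, fell with Yijin-tang (-0.75 ± 0.19, edgeR adjusted p = 0.00497) and had 0.06 ± 0.18 (adjusted p = 0.804) with Soshiho-tang and -0.41 ± 0.17 (adjusted p = 0.113) with Okbyeongpung-san. PPARGC1B rose with Soshiho-tang (0.40 ± 0.14) and fell with Yijin-tang (-0.41 ± 0.15). Subunits of the nuclear respiratory factor GABP rose: GABPA with Soshiho-tang (0.22 ± 0.04) and Yijin-tang (0.16 ± 0.04), and GABPB1 with Yijin-tang (0.27 ± 0.07) and Okbyeongpung-san (0.42 ± 0.07), where GABPB2 fell (-0.56 ± 0.09). The medians in the 3 extracts were 0.22, 0.07 and 0.22 over the chaperones and proteases and 0.06, -0.07 and -0.06 over the biogenesis regulators, against 0.01, 0.01 and 0.01 over all genes.

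Within Soshiho-tang genes of the nuclear lists were also called between 500 and 20 µg/mL, where no mitochondrial transcript passed the test. Of the transcription and replication genes 7 rose and 1 fell, of the RNA processing genes 9 and 1, of the translation factors 3 and 1, and of the biogenesis regulators and the chaperones and proteases 3 and 0 each, beside 14.6% of all genes higher and 14.2% lower. POLRMT was among those that rose (0.30 ± 0.08, edgeR adjusted p = 0.00469). For Yijin-tang 1 of 29 RNA processing genes and 1 of 11 translation factors rose and 0 genes of the 5 lists fell, beside 2.7% of all genes higher and 2.94% lower. For Okbyeongpung-san 2 of 29 RNA processing genes, 2 of 11 chaperones and proteases and 1 of 9 biogenesis regulators rose and 1 biogenesis regulator fell, beside 5.21% higher and 5.1% lower. In both extracts the calls are too few to set the lists apart from all genes.

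Across the 27 extract libraries the classes of mitochondrial transcript varied together to different degrees. The heavy-strand mRNA share correlated with the rRNA share (Pearson r = 0.66, permutation p = 1.40e-04, adjusted 2.10e-04; Spearman rho = 0.65, permutation p = 3.30e-04). Pearson r was 0.56 without the 2 libraries farthest from the median, 0.56 within Soshiho-tang and Yijin-tang (18 libraries) and 0.89 within Okbyeongpung-san and Soyo-san (9 libraries). With the MT-ND6 share r was 0.77 (permutation p = 2.00e-05, adjusted 6.00e-05; rho = 0.73, permutation p = 9.00e-05). That r was 0.84 without the 2 farthest libraries and 0.91 within the 18, but 0.36 within the 9 (exact permutation p = 0.336). So few libraries cannot show that the relation is absent there, and the difference between the sets was not tested. With the MALAT1 plus NEAT1 share r was -0.50 (permutation p = 0.00778; rho = -0.47, permutation p = 0.0148) and -0.48 without the 2 farthest libraries. Within the 18 libraries r was -0.44 (permutation p = 0.066) and rho -0.48 (permutation p = 0.0444). Within the 9 r was -0.64 (exact permutation p = 0.0566) and rho -0.43 (exact permutation p = 0.25). These 3 relations are between shares of the same total and include libraries of different doses.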

How the data were processed

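Per the labels' protocols, directional mRNA libraries were sequenced as 100-base pairs. How mRNA was selected, which annotation was counted and whether strand was used are not given in the sources used here. The deposited values are expected counts (estimated counts) for Ensembl genes. The authors used RSEM 1.3.3 with STAR 2.7.3a, Trim Galore 0.6.5 and FastQC 0.11.9 on hg38/GRCh38, per the submitters' processing notes. Another 30 columns are blank. Of 60675 entries 57055 matched GENCODE v29 by identifier, and symbols, coordinates and sequences come from that release.

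Values were rounded to whole counts and tested with edgeR 4.0.16 (quasi-likelihood test, TMM, filterByExpr with a minimum count of 10 and total of 15, Benjamini-Hochberg adjustment over all genes, threshold 0.05) in R 4.3.3, with limma 3.58.1. One fit held the vehicle, Soshiho-tang and Yijin-tang (21 libraries, 16872 genes), another the vehicle and Okbyeongpung-san (9 libraries, 16643 genes). The test was tried on simulated counts first. Shares and ratios within a library were compared by two-sided exact permutation tests. DESeq2 1.42.0, other scalings, filters and fits, each replicate left out and a block were alternatives. The block was the replicate number, or the batch letter in the gene tests of Okbyeongpung-san. Depth ran from 23.9 to 33.1 M counts per library. Chi-square per degree of freedom between libraries of one group was 3.21 to 39.5 over 24 pairs, so none looked like 1 library deposited more than once.

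The members and gene lists were chosen with earlier results of these data known. Every MT- gene is accounted for; from each nuclear list the rule names at most 4 called genes per extract, taken by size of log2 fold change at 500 µg/mL, plus POLRMT, TFAM, LRPPRC, SLIRP and PPARGC1A, and the 5 nuclear copies with the most counts. Replicate numbers of Okbyeongpung-san mark the batch letter in the titles, so its doses are paired by them (correlation of same-numbered deviations at 500 and 20 µg/mL 0.10). For Soshiho-tang and Yijin-tang the numbers pair nothing that the labels name.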

Additional observations from a re-analysis of the deposited data

How the results depend on the processing

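Across all alternatives run, no mitochondrial gene, share or ratio with a call turned its direction. Other denominators, leaving out the rRNAs or the genes under 400 bases, adding the nuclear copies, not rounding and the replicate number as a block changed no call of a share or ratio, but within a single dose the exact test cannot pass 0.05 under any setting, so this says nothing of their stability. RLE scaling, scaling on nuclear genes only, scaling by totals and DESeq2 kept each count of called genes within 1.5 times; under scaling by totals the median of all genes was 0.12 for Soshiho-tang at 500 µg/mL, against 0.01 as reported, and MT-CO2 with Okbyeongpung-san at 100 µg/mL passed too. Without the filter on low counts, 13 genes were called for Soshiho-tang at 100 µg/mL, 13 and 12 for Yijin-tang at 100 and 20 µg/mL, 13 and 14 for Okbyeongpung-san at 100 and 20 µg/mL, and 2, 5 and 13 for 500 against 20 µg/mL in Soshiho-tang, Yijin-tang and Okbyeongpung-san, with 1 for the interaction. These counts hold MT-RNR1 as higher in 5 of the comparisons with vehicle and MT-ND3 as higher in Soshiho-tang at 500 against 20 µg/mL and in the interaction. When only the groups compared were fitted, they were 13 for Soshiho-tang at 100 µg/mL, 11 and 11 for Yijin-tang at 100 and 20 µg/mL and 0 for Okbyeongpung-san at 500 against 20 µg/mL. One fit of 27 libraries gave 5 for Okbyeongpung-san at 20 µg/mL and 0 at 500 against 20 µg/mL. Without the filter 3512 of all 34287 genes were called for Soshiho-tang at 100 µg/mL. Yijin-tang at 100 and 20 µg/mL had 4288 and 3373 of them, and Okbyeongpung-san 1727 and 1442 of 31536. For 500 against 20 µg/mL without the filter, Soshiho-tang and Yijin-tang had 4660 and 1052 of 34287 and Okbyeongpung-san 2604 of 31536. The interaction had 2270 of 34287. Fitting only the groups compared called 3902 of 15821 genes for Soshiho-tang at 100 µg/mL. It called 3421 of 15808 and 3560 of 15818 for Yijin-tang at 100 and 20 µg/mL, and 523 of 16107 for Okbyeongpung-san at 500 against 20 µg/mL. The fit of 27 libraries called 2162 of 17396 for Okbyeongpung-san at 20 µg/mL and 3082 at 500 against 20 µg/mL. The cause of the differences between settings was not tested.

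In the gene tests the block was the batch letter for Okbyeongpung-san and the replicate number for Soshiho-tang and Yijin-tang. With it the count was 13 for Okbyeongpung-san at 100 µg/mL and 13 at 500 against 20 µg/mL, and the other counts stayed within 1.5 times. In these 2 comparisons calls over all 16643 genes rose too, from 609 to 3666 and from 1716 to 3251. For Soshiho-tang and Yijin-tang correlations of same-numbered deviations ran from -0.17 to 0.16. Such weak values cannot decide whether the numbers pair cultures, and no label says that they do.

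Leaving out 1 library at a time gave 8 to 13, 4 to 8 and 11 to 12 called genes for Soshiho-tang at 20, 100 and 500 µg/mL, 3 to 6, 5 to 7 and 6 to 13 for Yijin-tang, and 1 to 4, 1 to 3 and 11 to 15 for Okbyeongpung-san. For 500 against 20 µg/mL it gave 0 to 0 in Soshiho-tang, 0 to 2 in Yijin-tang and 4 to 12 in Okbyeongpung-san, and 0 to 1 for the interaction. With 1 library left in a group, that library is assumed to vary like the others. Calls over all genes are not given for these refits or those named in the Results. Whether a move in these counts is particular to the mitochondrial genes therefore cannot be told. Some differences within the spread changed sign when 1 library was left out, such as the share in Yijin-tang at 500 against 20 µg/mL and the MT-ND6 ratio of Okbyeongpung-san at 500 µg/mL. The tRNAs, with few counts in any library, were not tested.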
